A study of Mus musculus with 12 samples.

Results

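The 10 genes described here encode the topoisomerases of the mouse and core proteins in the repair of DNA adducts of topoisomerases: Top1, Top1mt, Top2a, Top2b, Top3a, Top3b, Tdp1, Tdp2, Parp1 and Xrcc1. They were chosen by symbol, for their role, and all 10 were found among the 23893 gene symbols of the raw count table. The question was whether deletion of Top1, or trapping of its product on DNA, went with a change in the other topoisomerases or in the repair genes. RNA-seq counts came from 12 cultures of cortical neurons, prepared from mid-gestation embryos of C57BL6 mice, with 3 cultures in each of 4 groups. On day 3 in culture (DIV 3, for days in vitro), all 12 cultures received a lentivirus driven by the CaMKIIα promoter, which is active in excitatory neurons, at an efficiency of 85 to 90% per the labels. The virus carried tdTomato alone in the groups called WT, and tdTomato with the recombinase CRE in the groups called Top1 cKO. According to the study's methods, both genotypes were Top1fl/fl cultures, so the WT neurons carried floxed alleles too. Cultures received vehicle (Veh, 0.003% DMSO) or 300 nM topotecan (Topot) from DIV 15 and were harvested 3 days later, so the groups are named WT-Veh and WT-Topot without deletion, and Top1 cKO-Veh and Top1 cKO-Topot with it.

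Topoisomerases relieve the twisting of DNA that transcription and replication cause. The type IB enzymes TOP1, in the nucleus, and TOP1MT, in mitochondria, cut a single strand and let it turn, whereas the type II enzymes TOP2A and TOP2B cut both strands and pass another duplex through. TOP2A is the form of dividing cells and TOP2B the form of postmitotic cells such as neurons. The type IA enzymes TOP3A and TOP3B act on single strands, and TOP3B also on RNA. Topotecan holds TOP1 on the strand it has cut, as the TOP1 cleavage complex. TDP1 removes the peptide that a degraded TOP1 leaves at a 3′ end, TDP2 does the same for TOP2 at 5′ ends, PARP1 detects the break and XRCC1 holds together the proteins that close it.

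The allele deletes exon 3 of Top1, and its sequence is shown because it sets what a count of Top1 can report. Top1 spans 76.9 kb at chr2:160471624-160548500 on the + strand of the mm9 genome build, and the longest annotated transcript has 21 exons. Exon 3 lies at chr2:160495836-160495938. It has 103 bases, 2.67% of the 3856 bases of that transcript, so the count of the gene hardly depends on exon 3 itself. The first line gives exons 2, 3 and 4 joined, with exon 3 in capitals. The second gives exon 2 joined to exons 4 and 5, as in an RNA that lacks exon 3, with the first stop codon that is then in frame in capitals.

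Top1 exons 2 to 4: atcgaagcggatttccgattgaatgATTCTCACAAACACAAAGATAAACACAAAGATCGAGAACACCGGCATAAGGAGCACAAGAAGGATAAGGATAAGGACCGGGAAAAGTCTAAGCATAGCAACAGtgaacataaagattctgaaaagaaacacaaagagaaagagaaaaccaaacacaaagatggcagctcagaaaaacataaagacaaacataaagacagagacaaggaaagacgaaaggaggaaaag

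Top1 without exon 3: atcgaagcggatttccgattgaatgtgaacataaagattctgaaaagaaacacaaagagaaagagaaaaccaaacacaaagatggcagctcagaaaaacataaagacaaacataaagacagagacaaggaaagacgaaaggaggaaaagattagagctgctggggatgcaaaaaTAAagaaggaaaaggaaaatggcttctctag

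With exon 3, the reading frame ran for 767 codons to a TGA in exon 21. Without it, the frame ran for 69 codons to the TAA shown in exon 5.

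**Figure D1:**
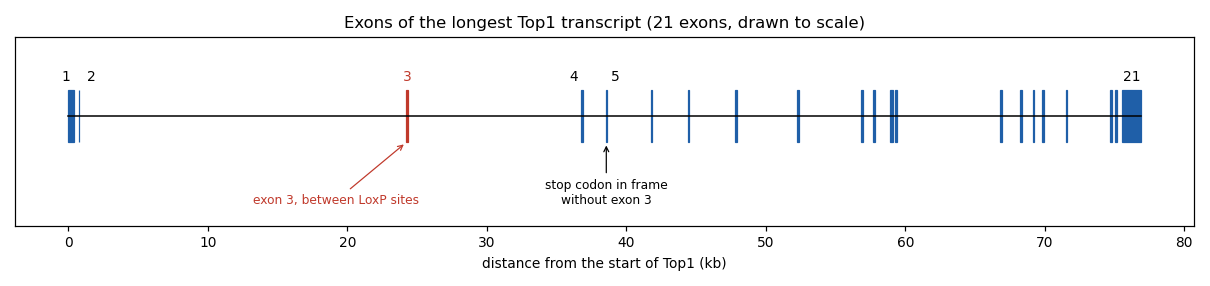
Exons of the longest Top1 transcript as boxes along the gene, with distance from its start in kb on the x axis. Exon 3 (red, 103 bases) lies 24.2 kb from the start, and exon 5, where the frame ends once exon 3 is missing, 38.6 kb from it.

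Top1 was lower in all CRE cultures than in any tdTomato culture, and its level with topotecan was close to that with vehicle in both genotypes. Levels are in CPM, counts scaled to a common library size after adjustment by the TMM method of edgeR. In replicates 1 to 3 with vehicle, Top1 was at 117, 163 and 124 CPM in WT cultures and at 30.1, 44.0 and 27.1 CPM in Top1 cKO cultures. With topotecan, Top1 was at 129, 140 and 130 CPM in WT and at 29.1, 37.5 and 28.4 CPM in Top1 cKO cultures. The highest CRE culture was below the lowest tdTomato culture. Between cultures of the same replicate number, the Top1 level after deletion was 21.9 to 26.9% of that in WT with vehicle and 21.8 to 26.9% with topotecan. In edgeR's quasi-likelihood test, with p-values adjusted over all 23893 genes and a threshold of 0.01 (FDR), Top1 fell in Top1 cKO-Veh against WT-Veh, with a log2 fold change of −1.98 (SE 0.233, adjusted p = 0.00119), and in Top1 cKO-Topot against WT-Topot, with −2.07 (SE 0.197, adjusted p = 5.19e-07). The vehicle comparison lost its call when genes with few counts were removed first (adjusted p = 0.0143) and without WT-Veh replicate 2 (adjusted p = 0.0104); over the 13 alternatives its adjusted p lay between 2.51e-33 and 0.0143. Topotecan gave a log2 fold change of Top1 of −0.01 in WT cells (95% interval −0.41 to 0.38) and −0.09 in Top1 cKO cells (−0.62 to 0.44). The counts do not separate RNA with and without exon 3, and 10 to 15% of cells were not transduced by the labels' figure. For the residual TOP1 protein, the paper names uninfected neurons, non-neuronal cells or both as the most likely source. What share of the remaining counts came from any of these sources was not tested. The span of Top1 also overlaps that of Gm17299, annotated on the other strand. Whether their exons overlap was not tested. Reads of any shared exon bases could not be told apart, because the use of strand in the counting is not given in the sources used here.

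Library sizes ranged from 1730164 to 4583777 counts (median 2543274), so that 3 counts corresponded to 0.687 to 1.73 CPM. The 9 neuronal marker genes checked were detected in every group and summed to 5184 to 6871 CPM. Markers of astrocytes (8 genes, none at 0 in any group) summed to 1273 to 3308 CPM in WT and 1315 to 3724 CPM in Top1 cKO cultures with vehicle, and to 630 to 1330 CPM and 629 to 1749 CPM with topotecan. Both ends of their range were thus lower with topotecan in both genotypes, while the ranges overlapped. Markers of microglia (8 genes) reached at most 20.2 CPM in any library, and those of endothelial and mural cells (8 genes) at most 43.8 CPM. Oligodendrocyte lineage markers (8 genes) summed to 98.5 to 155 CPM in WT and 141 to 195 CPM in Top1 cKO cultures with vehicle, and to 128 to 152 CPM and 136 to 297 CPM with topotecan. The part of these cells in the results below was not tested, and in bulk RNA fewer cells of a type and less RNA per cell cannot be told apart.

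**Figure D2:**
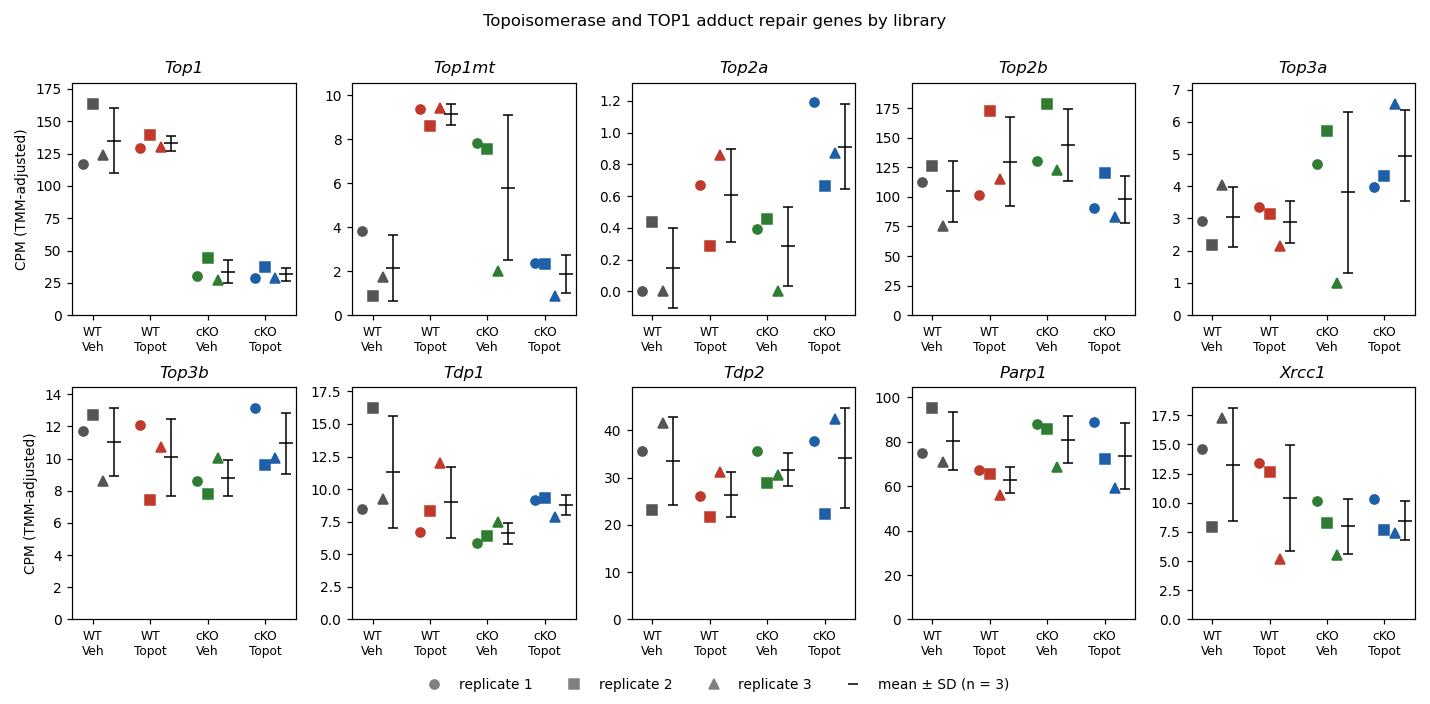
TMM-adjusted CPM (y axis, a scale of its own in each panel) of the 10 genes in the 12 libraries, by group; symbols mark the replicate number, and bars the mean ± SD of 3 cultures. Top1 separates CRE from tdTomato cultures, and Top1mt is highest in WT-Topot (8.59 to 9.42 CPM), with Top1 cKO-Veh reaching 7.82 CPM.

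Compared per length, as CPM per kb of exon, Top1 was the most abundant of the 10 in WT-Veh, at 34.7 ± 6.45 (SD, n = 3), and did not overlap the next gene. Parp1 (20.9 ± 3.38), Top2b (18.5 ± 4.61) and Tdp2 (17.1 ± 4.76) followed, each overlapping its neighbour in the order. Xrcc1 was at 6.16 ± 2.25 CPM per kb, apart from its neighbours. Top3b (2.71 ± 0.522), Tdp1 (2.49 ± 0.942), Top1mt (1.12 ± 0.791) and Top3a (0.712 ± 0.216) formed a chain of overlapping neighbours, and Top2a came last at 0.0262 ± 0.0454. In Top1 cKO-Veh the order began with Top2b (25.4 ± 5.36) and Parp1 (21.0 ± 2.75), which overlapped, and Top1 came after Tdp2, at 8.67 ± 2.32 CPM per kb. Of the summed level per kb of the 6 topoisomerases with vehicle, Top1 made up 60.2 ± 5.40% in WT and 21.4 ± 1.12% in Top1 cKO cultures, and with topotecan 52.8 ± 3.43% and 26.8 ± 0.921%. Top2b made up 31.8 ± 4.36% in WT and 63.4 ± 3.34% in Top1 cKO cultures with vehicle, and 34.7 ± 5.98% and 56.6 ± 2.70% with topotecan. The sum itself was lower after deletion, at 57.7 ± 9.84 CPM per kb in WT-Veh and 40.2 ± 9.07 in Top1 cKO-Veh. The share of Top2b therefore rises with the loss of Top1 alone, without a gain of Top2b. The ratio of Top1 to Top2b per kb was 1.52 to 2.39 in WT-Veh and 0.321 to 0.358 in Top1 cKO-Veh, so deletion of Top1 reversed which of the pair was more abundant.

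**Figure D3:**
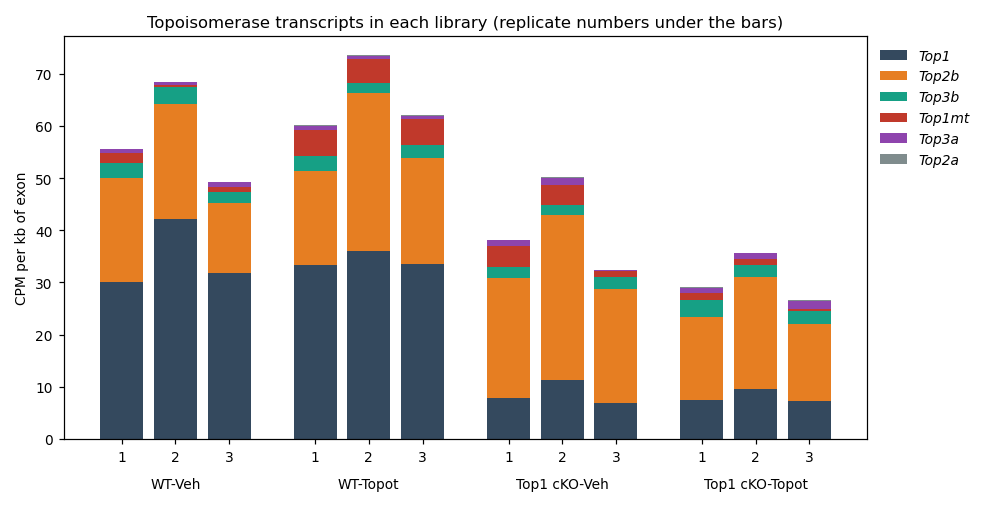
Stacked levels of the 6 topoisomerase genes in CPM per kb of exon (y axis) in each library, with replicate numbers under the bars. Top1 is the largest segment in the 6 tdTomato libraries and Top2b in the 6 CRE libraries, and the Top1mt segment is most visible in WT-Topot.

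Top1mt, the mitochondrial relative of Top1, was low in every culture and gave the only other call among the members in a comparison of 2 groups without the replicate block. With vehicle, Top1mt was at 3.80, 0.877 and 1.73 CPM in WT cultures (13, 2 and 3 counts) and at 7.82, 7.56 and 2.0 CPM in Top1 cKO cultures (20, 33 and 4 counts). With topotecan, it was at 9.38, 8.59 and 9.42 CPM in WT (28, 30 and 22 counts) and at 2.39, 2.32 and 0.874 CPM in Top1 cKO cultures (6, 7 and 2 counts). Every WT-Topot culture was above every culture of the other 3 groups, and Top1 cKO-Veh had 2 high cultures and 1 low. The lowest WT-Topot culture, at 8.59 CPM, was close to the highest Top1 cKO-Veh culture, at 7.82 CPM. Between these groups the log2 fold change was 0.59 (SE 0.421, adjusted p = 0.755, with the block 0.357), which showed no difference at the threshold. Under topotecan, Top1mt fell in Top1 cKO against WT cells, with a log2 fold change of −2.24 (SE 0.469, adjusted p = 0.00431). This call was lost in a fit of all 12 libraries (adjusted p = 0.0200) and without Top1 cKO-Topot replicate 2 (adjusted p = 0.0132); its adjusted p over the 13 alternatives was 5.52e-05 to 0.0200.

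Topotecan went with opposite differences in Top1mt in the 2 genotypes. In WT cells its log2 fold change was 1.98 (SE 0.483, adjusted p = 0.0186), which missed the threshold. Cultures with the same replicate number deviated from their group means together, so wherever a fit blocked on that number altered a call, its value follows. With this block, Top1mt rose with topotecan in WT cells (2.03, SE 0.424, adjusted p = 0.000107), and it was higher in 3 of 3 pairs, by 2.47 to 9.80 times. Without WT-Veh replicate 1, the highest of its group, the log2 fold change was 2.81 (adjusted p = 0.00151), and over the 13 alternatives the adjusted p lay between 0.000107 and 0.0744. In Top1 cKO cells topotecan gave −1.62 (95% interval −2.86 to −0.39, adjusted p = 0.820), with lower levels in 3 of 3 pairs, at 30.6 to 43.6% of vehicle; with the block the adjusted p was 0.0345. The interaction, fitted on all 12 libraries, asks whether the effect of topotecan differed between genotypes. For Top1mt it was −3.61 on the log2 scale (SE 0.767, adjusted p = 0.0184), and −3.68 with the block (SE 0.637, adjusted p = 5.22e-05). It passed the threshold without the block when WT-Veh replicate 1 (adjusted p = 0.00630) or Top1 cKO-Veh replicate 3 (adjusted p = 0.00414) was left out. Deletion alone gave 1.37 (95% interval 0.08 to 2.67, adjusted p = 0.518, with the block 0.0447), with 3 of 3 pairs higher.

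Top1mt lies at chr15:75487465-75509230 on the − strand, and its span overlaps an annotated transcript on the other strand, Gm15945. Whether the exons of this pair overlap was not tested, and reads of any shared exon bases could not be told apart either. The longest run of bases that Top1 and Top1mt transcripts share was 19, against reads of 50 bases. The nearest counted neighbours are Zfp41, 31.7 kb away, and Rhpn1, 25.5 kb away. In WT cultures, Zfp41 was at 25.5 ± 3.92 CPM with vehicle and 44.6 ± 4.47 CPM with topotecan (SD, n = 3), and in Top1 cKO cultures at 34.1 ± 3.46 and 38.2 ± 2.37 CPM. Rhpn1 was at 3.59 ± 1.03 and 6.04 ± 2.91 CPM in WT and at 2.52 ± 1.33 and 2.32 ± 0.415 CPM in Top1 cKO cultures. Both neighbours had their highest mean in WT-Topot, as Top1mt did. In Top1 cKO cultures, however, the mean of Zfp41 was higher with topotecan, whereas that of Top1mt was lower. Rhpn1 was at 6.70, 2.86 and 8.56 CPM in WT-Topot, against 2.63 to 4.68 CPM in WT-Veh. Test results of these neighbours are not given here, and a shared cause was not tested.

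Top2a, at chr11:98854257-98885503, was at or under the detection floor of 3 counts in all 12 cultures. With vehicle its counts were 0, 1 and 0 in WT and 1, 2 and 0 in Top1 cKO cultures, and with topotecan 2, 1 and 2 in WT and 3, 2 and 2 in Top1 cKO cultures. No fold change is given for it, and at 3 counts or fewer a difference between groups was not detectable at this depth. The 10 markers of proliferating cells were also low, at 11.8 to 20.3 CPM summed, with 5 of 10 at 3 counts or fewer in each group and 1 at 0 in WT-Topot (Bub1) and in each CRE group (Ube2c).

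Top2b, the type II enzyme of neurons, was abundant, and its difference between topotecan and vehicle was negative in Top1 cKO cells and positive in WT cells. With vehicle, Top2b was at 112, 126 and 75.4 CPM in WT cultures and at 130, 179 and 123 CPM in Top1 cKO cultures. With topotecan, Top2b was at 102, 172 and 115 CPM in WT and at 90.4, 121 and 83.1 CPM in Top1 cKO cultures. Replicate 2 was the highest culture in each of the 4 groups, and among Top1 cKO cultures all 3 with vehicle exceeded all 3 with topotecan. In Top1 cKO cells topotecan gave a log2 fold change of −0.54 (SE 0.200, adjusted p = 0.849), and with the replicate block Top2b fell (−0.54, SE 0.117, adjusted p = 0.000392). The ratio to vehicle was 0.694, 0.675 and 0.677 in the 3 pairs. In WT cells topotecan gave 0.31 (95% interval −0.16 to 0.78), with 2 of 3 pairs higher and ratios of 0.907, 1.37 and 1.52. With the block this interval was 0.015 to 0.58 (adjusted p = 0.220). The interaction was −0.86 (SE 0.325, adjusted p = 0.342), and −0.84 with the block (SE 0.185, adjusted p = 0.00156). Deletion alone gave 0.46 (95% interval −0.01 to 0.93, adjusted p = 0.591), higher in 3 of 3 pairs and by 1.16 to 1.63 times. With the block this interval was 0.19 to 0.73 (adjusted p = 0.0121). Between genotypes under topotecan the log2 fold change was −0.41 (−0.83 to 0.02, adjusted p = 0.386). With the block this interval was −0.65 to −0.13 (adjusted p = 0.0319). Top2b lies at chr14:17197693-17263301 on the + strand, 0.055 kb from Rarb on the other strand, and shares at most 23 bases in a row with Top2a.

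Top3a and Top3b, the type IA genes, were expressed at low levels and gave no call with or without the block. Top3a lies at chr11:60553560-60590867. With vehicle, Top3a was at 2.93, 2.19 and 4.03 CPM in WT cultures and at 4.69, 5.72 and 1.00 CPM in Top1 cKO cultures. With topotecan, Top3a was at 3.35, 3.15 and 2.14 CPM in WT and at 3.98, 4.32 and 6.56 CPM in Top1 cKO cultures. The 3 Top1 cKO-Topot cultures lay above the 3 WT-Topot cultures, with a log2 fold change of 0.74 (95% interval −0.26 to 1.74, adjusted p = 0.614). Top3b lies at chr16:16870829-16893083, and its span overlaps that of Vpreb1 on the other strand. It ranged from 7.44 to 13.1 CPM over the 12 cultures, and its groups overlapped in all comparisons. Its log2 fold changes between 2 groups lay between −0.35 for deletion with vehicle (95% interval −1.07 to 0.38) and 0.34 for topotecan in Top1 cKO cells (−0.37 to 1.04), and its interaction was 0.47 (−0.46 to 1.41). Top3a had only 2 to 25 counts per library, and a log2 difference of 1 in either direction lay inside its interval for topotecan in WT cells (−1.17 to 1.1).

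Tdp1, which clears TOP1 from 3′ ends, was lower in each Top1 cKO-Veh culture than in any WT-Veh culture, without passing the test. With vehicle, Tdp1 was at 8.48, 16.2 and 9.21 CPM in WT cultures and at 5.87, 6.41 and 7.52 CPM in Top1 cKO cultures. With topotecan, Tdp1 was at 6.70, 8.30 and 11.99 CPM in WT and at 9.16, 9.30 and 7.87 CPM in Top1 cKO cultures. Deletion with vehicle gave a log2 fold change of −0.78 (95% interval −1.59 to 0.04, adjusted p = 0.609). With the block this interval was −1.43 to −0.16 (adjusted p = 0.128). Topotecan gave 0.43 in Top1 cKO cells (−0.33 to 1.19, adjusted p = 1), where the groups again did not overlap, and −0.33 in WT cells (−1.12 to 0.45, adjusted p = 0.9004). Tdp1 lies at chr12:101122727-101193429. Tdp2, which clears TOP2 from 5′ ends, lies at chr13:24923548-24934022. With vehicle, Tdp2 was at 23.2 to 41.5 CPM in WT cultures and at 28.9 to 35.6 CPM in Top1 cKO cultures. With topotecan, Tdp2 was at 21.8 to 31.3 CPM in WT and at 22.3 to 42.4 CPM in Top1 cKO cultures. Its groups overlapped in all comparisons, and its log2 fold changes between 2 groups ranged from −0.34 for topotecan in WT cells (95% interval −0.89 to 0.22) to 0.36 between genotypes under topotecan (−0.18 to 0.91). Its interaction was 0.45 (−0.33 to 1.23).

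Parp1, the break sensor, lies at chr1:182499086-182531384 and was the most precisely measured of the repair genes. With vehicle, Parp1 was at 74.9, 95.1 and 70.8 CPM in WT cultures and at 88.0, 85.6 and 68.6 CPM in Top1 cKO cultures. With topotecan, Parp1 was at 67.0, 65.3 and 56.1 CPM in WT and at 88.8, 72.4 and 59.0 CPM in Top1 cKO cultures. The 3 WT-Topot cultures were below the 3 WT-Veh cultures, at 68.6 to 89.5% in the pairs, with a log2 fold change of −0.35 (95% interval −0.76 to 0.07, adjusted p = 0.539). With the block this interval was −0.65 to −0.03 (adjusted p = 0.188). Deletion gave 0.01 with vehicle (−0.42 to 0.44). Xrcc1, the scaffold, lies at chr7:25332169-25358457. With vehicle, Xrcc1 was at 14.6, 7.89 and 17.3 CPM in WT cultures and at 10.2, 8.24 and 5.51 CPM in Top1 cKO cultures. With topotecan, Xrcc1 was at 13.4, 12.6 and 5.14 CPM in WT and at 10.4, 7.64 and 7.43 CPM in Top1 cKO cultures. Its log2 fold change for deletion was −0.71 with vehicle (95% interval −1.52 to 0.10, adjusted p = 0.690), and the groups overlapped. With the block this interval was −1.22 to −0.04 (adjusted p = 0.245).

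**Figure D4:**
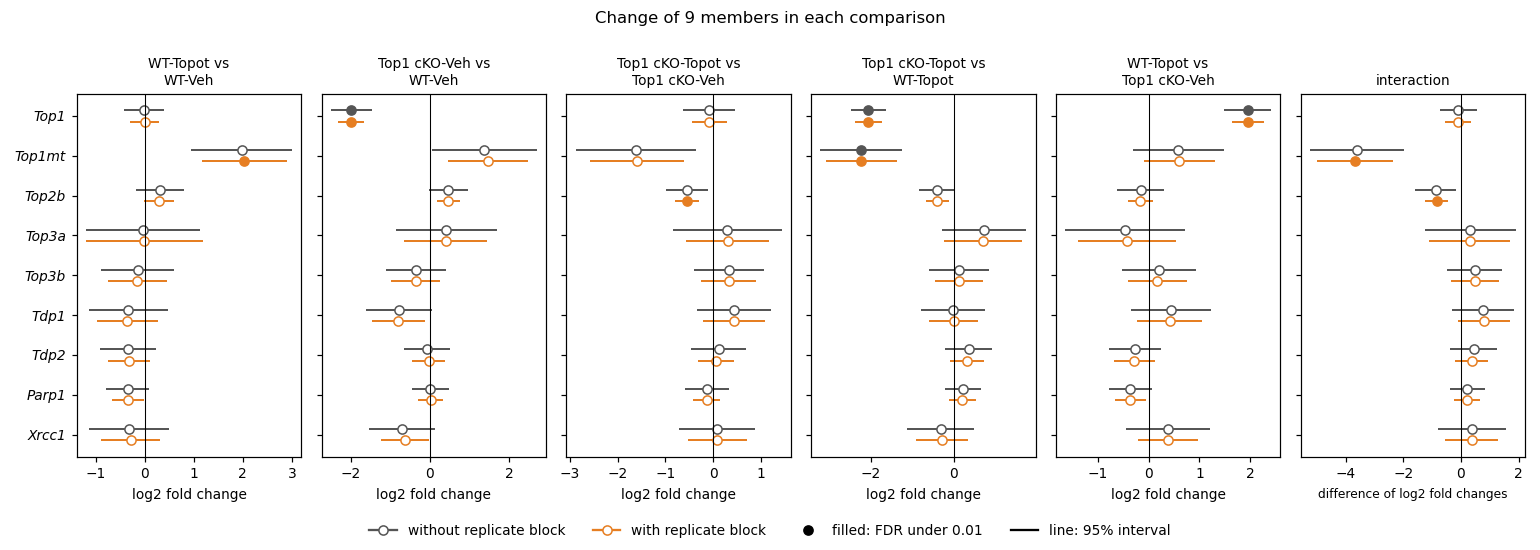
Log2 fold change (x axis, its own range in each panel) of 9 members in the 6 comparisons, with 95% intervals; Top2a is left out for its counts. Filled points pass the FDR of 0.01: Top1 in each comparison of a CRE with a tdTomato group, Top1mt in Top1 cKO-Topot against WT-Topot, and, with the block, Top1mt in WT cells under topotecan, Top2b in Top1 cKO cells under topotecan, and both in the interaction.

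The calls among the members are given here beside the share of all genes called. For topotecan in WT cells, 0 of the 10 members were called, where 2.72% of all genes tested were; with the block it was 1 of 10 (Top1mt), against 8.25%. At an unadjusted p under 0.05, 1 member (Top1mt) was higher and 0 were lower, where 13.1% of all genes passed that level in either direction. For deletion with vehicle, 1 of 10 was called (Top1), against 0.172%, and with the block again Top1 alone, against 5.56%. For topotecan in Top1 cKO cells, 0 of 10 were called, against 0.00837%, and 1 with the block (Top2b), against 2.59%; 2 members, Top1mt and Top2b, were lower at an unadjusted p under 0.05, which 4.32% of all genes passed in either direction. For deletion under topotecan, 2 of 10 were called (Top1 and Top1mt), against 2.49%, and the same 2 with the block, against 8.69%. WT-Topot against Top1 cKO-Veh, which sets trapping beside deletion, called 1 of 10 (Top1, log2 fold change 1.96, SE 0.210, adjusted p = 3.88e-05), against 1.53%, and Top1 alone with the block, against 7.73%. In the interaction 0 of 10 were called, against 0.435%, and 2 with the block (Top1mt and Top2b), against 3.97%. These comparisons share groups of cultures and are not independent of each other. The shares of all genes without the block moved with single libraries. For deletion with vehicle 41 genes were called, and 8 without WT-Veh replicate 2 or 128 without Top1 cKO-Veh replicate 1. For topotecan in Top1 cKO cells 2 were called, and 132 without Top1 cKO-Veh replicate 3.

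Of the 9 members with a mean of at least 1 CPM, 2 did not overlap between WT-Topot and WT-Veh (Top1mt and Parp1), where 26.0% of all such genes did not. For deletion with vehicle it was 2 of 9 (Top1 and Tdp1), against 19.9%, and for topotecan in Top1 cKO cells 2 of 9 (Top2b and Tdp1), against 11.7%. For deletion under topotecan it was 3 of 9 (Top1, Top1mt and Top3a), against 27.5%, and for WT-Topot against Top1 cKO-Veh 3 of 9 (Top1, Top1mt and Parp1), against 24.5%.

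The wider list of adduct turnover and repair held 38 genes, of which all but Rmi2 had over 3 counts in at least 1 library. Without the block, 1 of the 38 passed the test in any comparison, for deletion under topotecan, a share near the 2.49% of all genes called there. The gene was Cul4a, the scaffold of a ubiquitin ligase that marks trapped TOP1 for degradation. With topotecan, Cul4a was at 76.7, 79.6 and 67.2 CPM in WT and at 43.0, 43.2 and 35.8 CPM in Top1 cKO cultures, groups that did not overlap, and fell by 0.88 on the log2 scale with deletion (SE 0.199, adjusted p = 0.00831). With vehicle, Cul4a was at 81.9, 78.9 and 73.1 CPM in WT and at 57.5, 57.2 and 49.6 CPM in Top1 cKO cultures, with a log2 fold change of −0.51 (SE 0.196, adjusted p = 0.389, with the block 0.0200). The count of 1 pathway gene became 0 without any 1 of 5 of the 6 libraries of the comparison (each except WT-Topot replicate 3), and when genes with few counts were removed first.

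With the block, 4 further genes passed. The count was 4 of 38 with Cul4a for deletion under topotecan, against 8.69% of all genes, 1 of 38 for topotecan in WT cells, against 8.25%, and 1 of 38 for WT-Topot against Top1 cKO-Veh, against 7.73%, shares near or below those of all genes. The genes are described by role. Of the 13 genes of adduct turnover and sensing, Ddb1, the adaptor of CUL4 ligases, fell with deletion under topotecan (−0.45, SE 0.105, adjusted p = 0.00126), whereas Cul3, another ligase scaffold, rose (0.52, SE 0.136, adjusted p = 0.00447). With vehicle, deletion gave −0.39 for Ddb1 (SE 0.116, adjusted p = 0.0151), in groups that did not overlap, and 0.04 for Cul3. The mean of Cul3 was lowest in WT-Topot, at 84.3 CPM, against 112 CPM in WT-Veh. In CRE cultures its mean was 116 CPM with vehicle and 122 CPM with topotecan. Topotecan in WT cells gave −0.40 for Cul3 (SE 0.145, adjusted p = 0.0572), again without overlap. Between WT-Topot and Top1 cKO-Veh, Ddb1 was higher in the former (0.48, SE 0.0983, adjusted p = 0.000428). Of the 10 genes of single-strand break repair, Fen1, a flap endonuclease, rose with deletion under topotecan, from 9.05, 9.16 and 11.99 CPM to 24.7, 13.6 and 22.7 CPM (0.98, SE 0.250, adjusted p = 0.00371). Of the 6 TOP3 partners and helicases, Blm, the helicase that works with TOP3A, was at 5.27, 6.57 and 7.49 CPM in WT cultures with vehicle and at 1.68, 2.58 and 0.428 CPM with topotecan, and fell with the block (−1.94, SE 0.510, adjusted p = 0.00330). Of the 9 nucleases and end-processing genes, 0 passed in any comparison with or without the block.

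Over the 38 genes the median log2 fold change was −0.06 for topotecan in WT cells, 0.06 for deletion with vehicle, 0.10 for topotecan in Top1 cKO cells and 0.09 for deletion under topotecan. Over all genes averaging 1 CPM or more the medians were 0.03, −0.0033, −0.00028 and −0.02. At an unadjusted p under 0.05 without the block, 1 of the 38 was higher and 4 lower with topotecan in WT cells, 0 higher and 2 lower with deletion, 0 higher and 0 lower with topotecan in Top1 cKO cells, and 3 higher and 2 lower with deletion under topotecan. Of all genes, 13.1, 8.72, 4.32 and 14.2% passed that level in these comparisons, in either direction.

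**Figure D5:**
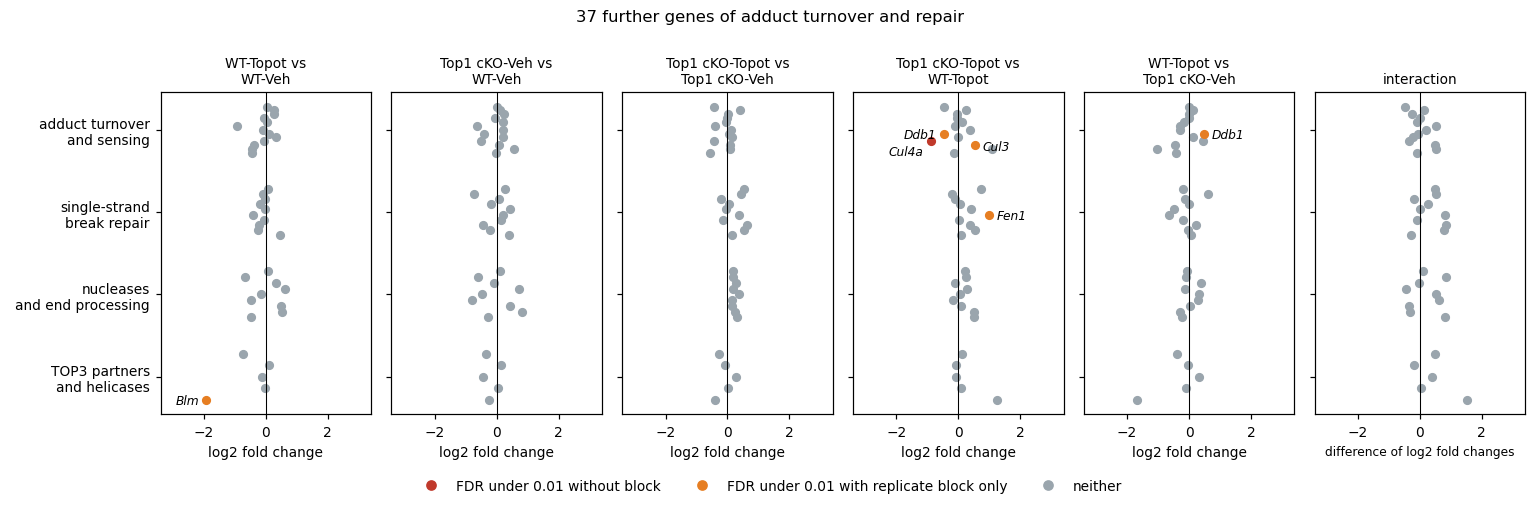
Log2 fold change (x axis) of the 37 pathway genes over 3 counts in the 6 comparisons, by role, each point a gene; colours mark genes past an FDR of 0.01. Points range from −1.92 to 1.52, both Blm, and the named genes are the 5 described above.

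The genes whose pattern over the 12 libraries was most like that of Top1 were Lcorl, Cd24a, Chd2, Ift140 and Omg, by the root mean square difference of centred log2(CPM + 1) values, among 9506 genes of at least 10 CPM. This difference was 0.414 for Lcorl and 0.488 for Omg, where the median over all genes compared was 1.08. In WT cultures, Lcorl was at 74.7 ± 5.66 CPM with vehicle and 70.4 ± 9.03 CPM with topotecan (SD, n = 3), and in Top1 cKO cultures at 34.6 ± 6.95 and 22.6 ± 2.35 CPM. Chd2, a chromatin remodeller, was at 55.1 ± 11.5 and 45.1 ± 13.2 CPM in WT and at 19.3 ± 3.37 and 20.2 ± 2.55 CPM in Top1 cKO cultures. Cd24a was at 191 ± 28.3 and 248 ± 65.1 CPM in WT and at 53.1 ± 14.9 and 56.6 ± 24.7 CPM in Top1 cKO cultures. The 5 were chosen for this likeness, which by itself fixes that they were lower in both CRE groups.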

How the data were processed

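The 12 RNA-seq libraries, 3 per group, were grouped and numbered by the sample labels. The authors sequenced both ends of fragments for 50 bases, used TagDust as a filter and TopHat to align to mm9, and dropped rRNA reads. The deposited values are raw counts over the exons of RefSeq genes, summed by gene symbol, without normalization. The program that counted, its use of strand and the versions of the tools are not given in the sources used here. All columns were assigned to a sample. Members and lists were chosen with earlier results of these data known, and by one rule: all 10 members, and pathway genes past the FDR of 0.01 in any comparison with or without the block, at most 12. Some genes of the pathway list are not reported here and were left out of its counts.

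Comparisons of 2 groups used edgeR 4.0.16 (R 4.3.3) on the 6 libraries concerned, TMM factors, no filter, the quasi-likelihood test and Benjamini-Hochberg adjustment over 23893 genes, without the replicate block. The interaction used all 12. Intervals of 95% follow from the SE of the fit without the block, unless the block is named. Where a printed interval spanned 0 and that with the block did not, both are given. An interval is for a single gene and is not adjusted over all genes. The replicate numbers paired the cultures: over 13720 genes, deviations from group means correlated at 0.261 to 0.485 in all 18 same-number pairs of libraries. Between numbers they correlated at −0.384 to −0.0494. Deviations sum to 0 in each group, so positive same-number values by themselves make those between numbers negative on average. What a number stands for is not given in the sources used here, so p-values may measure technical spread. No library was a sequencing repeat of another of its group: dispersion indices within groups were 6.44 to 10.9, where sampling noise gives about 1. This index cannot tell libraries of separate cultures from separate libraries of the same culture. Exon lengths, coordinates and sequence came from GENCODE vM1 on NCBIM37, the assembly that mm9 names. The test was tried on simulated counts of the 23893 genes for WT-Topot against WT-Veh. Without replicate effects it recovered 45% of 100 genes changed by 1 on the log2 scale and 96% of 100 changed by 2, with 18 unchanged genes called. With replicate effects it recovered 5% and 94% without the block, and 77% and 98% with it. The unchanged genes called were then 0 without the block and 3 with it. The size of these replicate effects was assumed. The changed genes were drawn only from genes with higher expected counts than Top1mt, Top2a and Top3a had in WT-Veh. The recovered shares therefore do not apply to these low members.

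Alternatives were RLE size factors, total counts, edgeR's filterByExpr, DESeq2 1.42.0, edgeR's exact test, a fit of all 12 libraries, the replicate block, and leaving out each library.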

Additional observations from a re-analysis of the deposited data

Results flagged for a closer look

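The 2 differences below between genotypes in the response to topotecan each come from the interaction with the replicate number as a block. For Top1mt it was −3.68 on the log2 scale (edgeR, adjusted p = 5.22e-05): the level was higher with topotecan in 3 of 3 WT pairs and lower in 3 of 3 Top1 cKO pairs. For Top2b it was −0.84 (adjusted p = 0.00156), with 2 of 3 WT pairs higher and 3 of 3 Top1 cKO pairs lower. Without the block the adjusted p-values were 0.0184 and 0.342.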

How the results depend on the processing

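Of 734 recomputed log2 fold changes of members, 692 kept their direction and their side of the threshold, 8 gained a call, 4 lost one and 30 changed sign. The deletion calls of Top1 lay at −2.23 to −1.82 with vehicle and −2.22 to −1.99 under topotecan when single libraries were left out, and filterByExpr gave −1.99 (adjusted p = 0.0143) with 0 members called. In the order topotecan in WT, deletion with vehicle, topotecan in Top1 cKO, deletion under topotecan, WT-Topot against Top1 cKO-Veh, interaction, the replicate block called 1, 1, 1, 2, 1 and 2 members and 1, 0, 0, 4, 1 and 0 pathway genes; it changed no other call of a member than those given in the report. For topotecan in WT, the exact test called 1 member. For deletion under topotecan, filterByExpr called 0 pathway genes and the fit of all 12 libraries 1 member. With single libraries left out, members called ranged from 0 to 1 for topotecan in WT, deletion with vehicle and the interaction and from 1 to 2 for deletion under topotecan, and pathway genes from 0 to 1 for deletion under topotecan.

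Sign changes concerned log2 fold changes of −0.33 to 0.41 that passed no test. With total counts only, topotecan in WT gave 0.074 for Top1 and 0.035 for Top3a; with the block, deletion under topotecan gave 0.0013 for Tdp1. With single libraries left out, topotecan in WT gave −0.12 to 0.15 for Top1, −0.21 to 0.17 for Top3a, −0.30 to 0.045 for Top3b and −0.58 to 0.020 for Tdp1. Deletion with vehicle gave −0.019 to 0.80 for Top3a, −0.28 to 0.094 for Tdp2 and −0.066 to 0.15 for Parp1. Topotecan in Top1 cKO gave −0.23 to 0.15 for Top1, −0.084 to 0.72 for Top3a, −0.069 to 0.36 for Tdp2, −0.30 to 0.0029 for Parp1 and −0.097 to 0.28 for Xrcc1. Deletion under topotecan gave −0.062 to 0.28 for Top3b and −0.19 to 0.22 for Tdp1, WT-Topot against Top1 cKO-Veh −0.39 to 0.044 for Top2b, and the interaction −0.25 to 0.15 for Top1 and −0.056 to 0.75 for Top3a. The cause was not tested.

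Over all genes, the 6 comparisons called 651, 41, 2, 596, 365 and 104 genes, filterByExpr 479, 3, 0, 371, 238 and 64, and the block 1970, 1328, 620, 2076, 1846 and 948. With single libraries left out they ranged over 554 to 1027, 8 to 128, 1 to 132, 389 to 891, 214 to 871 and 51 to 140. In the same order, the lowest were without WT-Veh replicate 2, WT-Veh replicate 2, Top1 cKO-Topot replicate 2, Top1 cKO-Topot replicate 2, Top1 cKO-Veh replicate 2 and WT-Topot replicate 1, and the highest without WT-Veh replicate 3, Top1 cKO-Veh replicate 1, Top1 cKO-Veh replicate 3, Top1 cKO-Topot replicate 3, Top1 cKO-Veh replicate 3 and WT-Veh replicate 1. Counts of 2 to 33 for Top1mt and at most 3 for Top2a limit what could be detected. Levels per kb of the longest transcript instead of all exons were 3.59 against 2.71 for Top3b and 2.89 against 2.49 for Tdp1 in WT-Veh, and the largest shift was that of Top3b.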
